A study of Saccharomyces cerevisiae with 24 samples.

Results

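The experiment is the pair of arrays, 2 of 24 in the series, in which a strain lacking the Mediator subunit Med31 was compared with wild-type yeast after rapamycin treatment. The arrays were taken by their titles. Wild-type is BY4741, a *MATa* strain with mutations in *URA3*, *LEU2*, *HIS3* and *MET15*, and *med31Δ* is the isogenic deletion strain, in which a *kanR* cassette replaces the gene. Both strains were grown in YPD at 30°C and both received 0.2 µg/ml rapamycin for 1 hour, so each ratio compares the strains after treatment and does not measure the response to the drug. The cDNA made from *med31Δ* RNA was labeled with Cy3 on replicate 1 and with Cy5 on replicate 2. No label states that the 2 arrays hold separate cultures, so the pair was counted as 1 replicate and no test across samples was possible. All values are log2 ratios of *med31Δ* over wild-type, given as the mean of the pair followed by replicate 1 and replicate 2 in parentheses. A gene was called at a mean of at least 2-fold.

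Mediator is a large complex that links DNA-bound activators and repressors to RNA polymerase II, and it is divided into head, middle, tail and Cdk modules. Med31 (Soh1) is a small, non-essential subunit of the middle module. Rapamycin inhibits the TOR kinase, and yeast respond by shutting down the genes of ribosomal proteins (RP genes) and of ribosome assembly while raising genes for stress defense and for the use of poor nitrogen sources. The comparison addressed whether RP gene repression by rapamycin depends on a subunit outside the head module.

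The deleted gene was examined first. *MED31* (YGL127C, chromosome VII) was at -1.05 (-0.86, -1.25), a 2.07-fold difference. Its net spot intensity, foreground minus local background, was 165.5 in *med31Δ* and 384 in wild-type on replicate 1, and 125.5 and 405.5 on replicate 2. The *med31Δ* channel was below the wild-type channel on both arrays but stayed above background, the 95th percentile of unnamed spots in the same channel. Its neighbors on the chromosome, *SCS3* and *CWC23*, were at 0.18 (0.30, 0.06) and -0.13 (-0.16, -0.10). Of the other Mediator genes, *MED6*, *MED7* and *MED16* had no value on both arrays, *MED11* was lowest at -0.33 (-0.01, -0.65), *MED9* was at -0.27 (-0.10, -0.44) and *MED10* was highest at 0.16 (0.03, 0.30). None of those measured was past 2-fold. *MED22* and *MED4* were not above background in either strain, and *MED18* was not in wild-type, so their ratios are not informative. In the other deletions compared with wild-type after rapamycin, the targeted gene was also lower on both arrays, with *MED20* at -0.89 (-0.57, -1.20) in *med20Δ*, cyclin C (*SSN8*) at -0.88 (-0.95, -0.81) in *cycCΔ* and *MED16* at -0.67 (-0.68, -0.66) in *med16Δ*. The paper's genotype lists *URA3*, *LEU2* and *MET15* as deleted in these strains. *URA3* and *MET15* were not above background in either strain on either array. The *LEU2* spot was above it in both strains although the gene is listed as deleted, and the source of that signal was not tested. Neither strain had signal above background for the alpha-factor gene *MF(ALPHA)1*. The other α-specific genes on the list, *MF(ALPHA)2* and *SAG1*, were above background in both strains on both arrays, at 0.19 (0.29, 0.08) and -0.39 (-0.49, -0.29). *STE3*, the a-factor receptor of α cells, was above background on both arrays in wild-type and on none in *med31Δ*, where it was at least 1.22-fold lower (a bound from the background floor). On the 2 arrays, 323 to 348 of 6307 ORF spots were left out by their flag and 75.7% to 81.3% of ORF spots were above background in a channel. The chromosome medians ranged from -0.024 to 0.017.

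A ratio was measured for 5929 genes on both arrays, and 6 genes (0.101%) were called higher and 44 (0.742%) lower in *med31Δ*. The counts depended on the processing, with 59 and 125 genes past 2-fold when local background was subtracted and 51 and 114 in the authors' normalized ratios. They were 4 and 108 without replicate 1 and 25 and 30 without replicate 2. In the main setting the highest was *RPL3* at 1.21 and the lowest was *AGA2* at -2.37. The 2 arrays were only loosely related across genes (r = 0.239, genes not being independent replicates), with an SD of 0.396 for the difference between them. Of all genes, 26.5% were above 0 on both arrays and 26.5% were below 0 on both. A mean past 2-fold leaves little room for opposite signs. All 6 genes called higher and 43 of the 44 called lower had the same sign on both arrays. The exception was *HOM2*, a homoserine pathway enzyme, at -1.02 (0.16, -2.20). A difference of 1.5-fold in 1 direction with both labelings was found for 30 genes (0.506%) on the higher side and 93 (1.57%) on the lower side. The scatter of 1 array against the other shows these genes as 2 arms along the diagonal, which the rule for picking them requires. RP genes lie away from it.

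**Figure D1:**
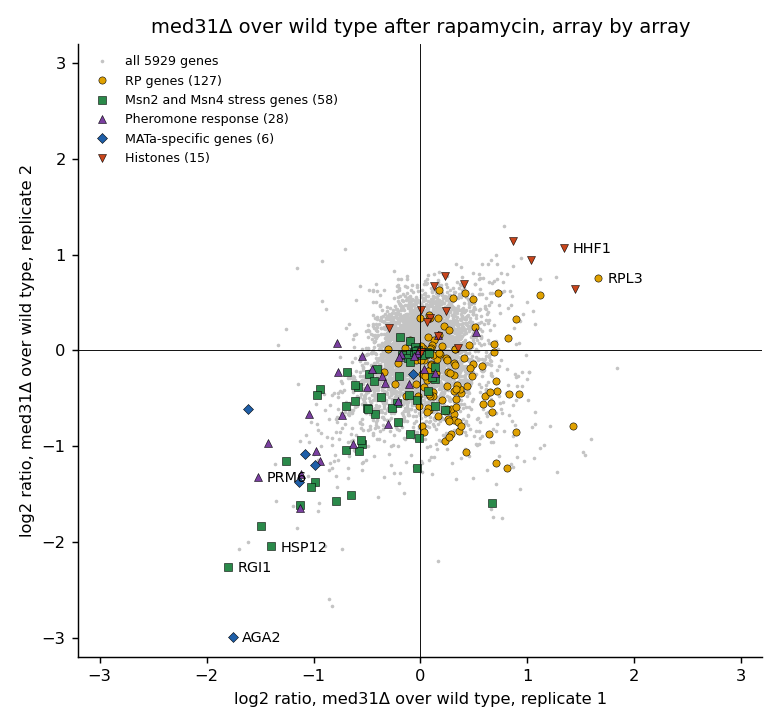
Each point is 1 gene, with the log2 ratio of med31Δ over wild-type on replicate 1 (x axis) and replicate 2 (y axis); colors mark 5 gene lists and grey marks all 5929 genes. Histone genes lie in the upper right and MATa-specific, pheromone response and stress genes in the lower left, whereas most RP genes lie to the right of 0 on replicate 1 and below 0 on replicate 2.

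RP genes, the class the comparison was designed for, had a median near 0 in the mean of the pair, with opposite signs on the 2 arrays. The median over 127 measured RP genes of 137 listed was -0.012 (0.24, -0.24), against 0.0019 over all genes. On replicate 1 the ratio was above 0 for 112 of the 127 and on replicate 2 it was below 0 for 94. Before the ratios were turned, the median of Cy5 over Cy3 was -0.24 on both arrays, so the median had the same sign for the same dye, whichever strain carried it. Large-subunit genes had a median of -0.031 (0.20, -0.24) over 78 genes and small-subunit genes 0.012 (0.27, -0.22) over 49. Of the 127, 29 RP genes were higher on both arrays (22.8%, against 26.5% of all genes) and 11 were lower on both (8.66%, against 26.5%).

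The RP genes with the same sign for both labelings were mostly higher in *med31Δ*. *RPL3*, which encodes a conserved large-subunit protein at the peptidyl transferase center, was the only RP gene called, at 1.21 (1.67, 0.76), 2.32-fold higher. Its net intensity was 2595 in *med31Δ* and 775 in wild-type on replicate 1, and 1524.5 and 636.5 on replicate 2. *RPS12* was at 0.85 (1.12, 0.58), *RPL10* at 0.66 (0.72, 0.60) and *RPL5*, which binds 5S rRNA, at 0.61 (0.90, 0.32). These genes were picked among those with the same sign on both arrays, so a higher *med31Δ* channel with either labeling follows from the choice. *RPL4A* was at 0.51 (0.49, 0.54), *RPS9A* at 0.51 (0.42, 0.60) and *RPS9B* at 0.43 (0.30, 0.55), though the *RPS9* genes are close paralogs whose spots may share signal. *RPL28*, which like *RPL3* encodes a large-subunit protein, was at 0.23 (0.22, 0.25). At the low end, *RPL42B* was at -0.41 (0.03, -0.85) and *RPL42A* at -0.39 (0.01, -0.79), each near 0 with 1 labeling. *RPS13* had the widest gap between labelings among these RP genes, at 0.32 (1.42, -0.79).

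The other 3 deletions were compared with wild-type after rapamycin in the same way. The RP median was 1.42 (1.21, 1.67) in *med20Δ* (head module), 0.44 (0.48, 0.33) in *med16Δ* (tail module) and 0.057 (0.26, -0.13) in *cycCΔ* (Cdk module). In *med20Δ* and *med16Δ* both arrays were above 0, whereas in *med31Δ* and *cycCΔ* the arrays had opposite signs. In wild-type alone, the RP median was -3.08 with rapamycin over without. These comparisons may share the RNA of rapamycin-treated wild-type cells, each is 1 dye-reversed pair, and their differences were not tested.

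**Figure D2:**
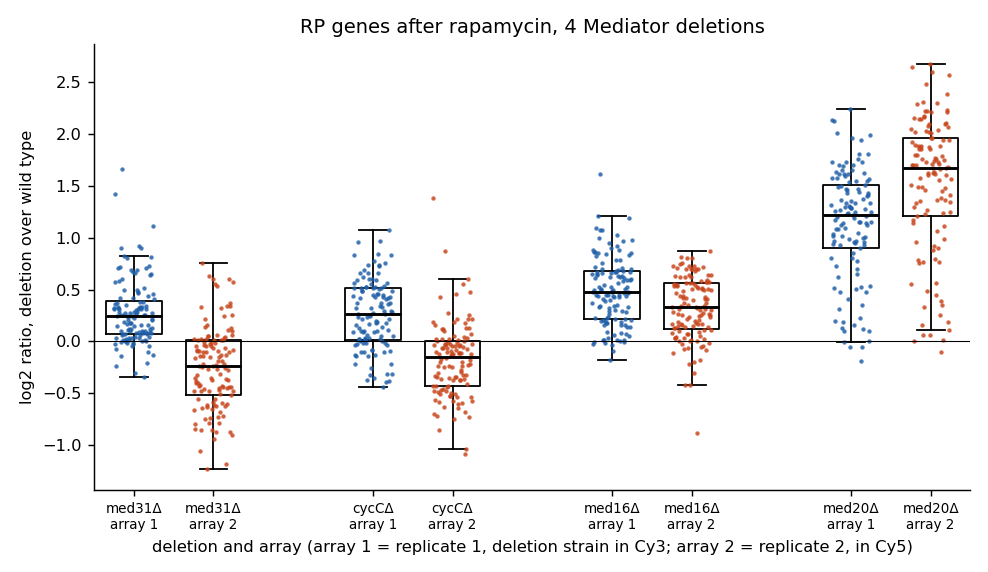
Log2 ratio of deletion over wild-type after rapamycin for each RP gene (points) on each array (x axis), with boxes for the quartiles, a thick line for the median and whiskers to the last gene within 1.5 interquartile ranges. The med31Δ medians are 0.24 and -0.24 for the 2 labelings, and the med20Δ medians are 1.21 and 1.67.

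Genes of ribosome assembly were shifted up by a small amount with both labelings. The small-subunit processome, which cuts and folds the rRNA of the small subunit, had a median of 0.17 (0.17, 0.23), with 47 of 65 genes higher on both arrays (26.5% of all genes) and 1 lower. Large-subunit assembly genes had a median of 0.16 (0.12, 0.17), with 56 of 81 higher on both arrays and 3 lower. None of these genes was called, where 0.101% of all genes were called higher and 0.742% lower. The box C/D snoRNP protein gene *NOP58* was highest at 0.85 (0.70, 0.99), and the processome gene *KRR1* was at 0.67 (0.72, 0.62). Among large-subunit factors, the rRNA methyltransferase gene *NOP2* was at 0.80 (0.66, 0.94), *RLP7* at 0.70 (0.78, 0.62) and the 60S export adaptor gene *NMD3* at 0.69 (0.76, 0.61). These genes were picked among those with the same sign on both arrays, so agreement between labelings was a condition of being named. RNA polymerase I and III subunits had a median of 0.14 (0.12, 0.15), with the shared subunit *RPC40* at 0.57 (0.74, 0.39) and the largest polymerase I subunit *RPA190* at 0.42 (0.43, 0.42). Translation factors and associated proteins had a median of 0.21 (0.17, 0.14), with 22 of 37 higher on both arrays (26.5% of all genes). In wild-type with rapamycin over without, the processome and large-subunit assembly medians were -0.83 and -0.97.

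Mating genes had the lowest median of any list. MATa-specific genes, which are expressed in a cells and not in α cells, had a median of -1.11 (-1.11, -1.14). All 6 members were lower on both arrays after normalization and 5 were called lower, against 0.742% of all genes. *AGA2*, the adhesion subunit of a-agglutinin, was at -2.37 (-1.75, -2.99), 5.18-fold lower and the lowest of all genes. Its net intensity was 1667 in *med31Δ* and 6778.5 in wild-type on replicate 1, and 1587.5 and 9185 on replicate 2. The channel with *med31Δ* was the dimmer one on both arrays by several fold. *BAR1*, the secreted protease that degrades α-factor, was at -1.26 (-1.14, -1.38), and *STE2*, the α-factor receptor, was at -1.09 (-0.99, -1.20). The a-factor genes *MFA2* and *MFA1* were at -1.12 (-1.62, -0.62) and -1.08 (-1.08, -1.08). The *MFA2* net intensity was 9377 in *med31Δ* and 44271.5 in wild-type on replicate 1, and 20518 and 16325 on replicate 2. On replicate 2 its *med31Δ* channel was thus the brighter one before normalization, and its sign there rests on the normalization. *STE6*, the a-factor exporter, was the member that was not called, at -0.16 (-0.07, -0.25).

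Genes induced by pheromone were lower as well. The 28 measured members had a median of -0.34 (-0.40, -0.30), with 22 lower on both arrays and 2 higher on both (26.5% of all genes in each direction), and 6 were called lower (0.742% of all genes). *PRM6*, a pheromone-regulated membrane protein gene, was at -1.42 (-1.52, -1.32), and *FUS1*, required for fusion of mating cells, was at -1.38 (-1.12, -1.64). *KAR4*, a transcription factor gene for nuclear fusion, was at -1.20 (-1.11, -1.29), *ASG7* at -1.20 (-1.43, -0.97) and *SST2*, which turns off the pheromone G protein, at -1.05 (-0.94, -1.16). *FIG1* was at -1.01 (-0.97, -1.05) and was above background in *med31Δ* on 1 of 2 arrays. Genes of the signaling cascade were shifted by less, with the MAP kinase gene *FUS3* at -0.81 (-0.63, -0.98), *FAR1* at -0.70 (-0.73, -0.67), the Gα gene *GPA1* at -0.44 (-0.50, -0.38) and the transcription factor gene *STE12* at -0.33 (-0.33, -0.34). Most of this class were lower with either labeling. *SCW10* (0.36 (0.52, 0.20)) and *CIK1* (0.16 (0.16, 0.16)) were the members higher on both arrays. The arrays measure RNA from whole cultures, so fewer expressing cells and less RNA per cell cannot be told apart.

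Stress genes controlled by Msn2 and Msn4 were lower in *med31Δ*. The median over 58 measured genes was -0.43 (-0.21, -0.48), with 42 lower on both arrays (26.5% of all genes) and 0 higher on both, and 9 were called lower (0.742% of all genes). *RGI1*, a gene of energy metabolism under respiratory growth, was at -2.03 (-1.80, -2.26), 4.08-fold lower. Its net intensity was 818.5 in *med31Δ* and 3428 in wild-type on replicate 1, and 654.5 and 2773 on replicate 2. *HSP12*, a membrane-protecting small heat shock protein gene, was at -1.72 (-1.39, -2.04), and *TMA10* was at -1.66 (-1.49, -1.83). Both arrays placed these genes past 2-fold. *SPI1*, a cell wall protein gene, was at -1.37 (-1.13, -1.62), and *YRO2*, a plasma membrane protein gene, at -1.21 (-1.26, -1.15). Among the trehalose and glycogen genes in this list, *PGM2* (phosphoglucomutase) was at -1.23 (-1.03, -1.43) and *TSL1* (a trehalose synthase subunit) at -1.08 (-0.65, -1.51), whereas *TPS2* was at 0.00 (0.04, -0.04). Other members were closer to 0, with the catalase gene *CTT1* at -0.43 (-0.37, -0.49) and *HSP42* at -0.07 (-0.10, -0.04). Heat shock chaperones had a median of -0.17 (-0.16, -0.18); *HSP26* was at -1.18 (-0.99, -1.38) and *SSA4* at -0.87 (-0.97, -0.77), but *SSZ1*, a ribosome-associated Hsp70, was higher at 0.81 (0.81, 0.80). The glutathione peroxidase gene *GPX1* was at -1.19 (-1.06, -1.32).

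Histone genes were higher. The list of histones and their regulators had a median of 0.33 (0.23, 0.42). Of 15 measured genes, 13 were higher on both arrays and 0 lower on both, against 26.5% of all genes in each direction. Of the 15, 3 were called higher (0.101% of all genes). *HHF1*, an H4 gene, was at 1.20 (1.34, 1.07), 2.3-fold higher and the only gene past 2-fold upward on both arrays. Its net intensity was 20673.5 in *med31Δ* and 11801 in wild-type on replicate 1, and 22374.5 and 5927 on replicate 2. The second H4 gene *HHF2* was at 0.99 (1.04, 0.94) and the H2A genes *HTA1* and *HTA2* at 1.04 (1.45, 0.64) and 1.01 (0.87, 1.14). Members of such pairs are near-identical in coding sequence, so their spots cannot be read as independent. The H2B gene *HTB1* was at 0.55 (0.41, 0.70), the H3 gene *HHT1* at 0.50 (0.23, 0.78) and linker histone *HHO1* at 0.40 (0.13, 0.67). The variant *HTZ1* was at 0.16 (0.17, 0.15), and the histone regulators *HIR1* and *SPT10* were at -0.03 (-0.30, 0.23) and -0.00 (0.00, -0.01).

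Other genes of the G1 to S transition were also higher, by less. Targets of SBF and MBF, the factors that start the cell cycle program, had a median of 0.22 (0.19, 0.27). Of 46 genes, 33 were higher with both labelings and 1 was lower, against 26.5% of all genes in each direction. None was called, where 0.101% of all genes were called higher and 0.742% lower. The cyclin genes *PCL1* and *CLB6* were at 0.75 (0.99, 0.51) and 0.66 (0.85, 0.48). The cohesin gene *MCD1* was at 0.73 (0.72, 0.75) and *TOS4* at 0.62 (0.93, 0.30). Genes of the later CLB2 cluster had a median of 0.1 (0.063, 0.093), and its called member was the plasma membrane proton pump gene *PMA1* at 1.02 (1.27, 0.77). The share of cells in each phase was not measured here, so its part in these values was not tested.

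Several biosynthetic pathways were lower. Vitamin B6 and thiamine genes had a median of -0.31 (-0.26, -0.31), with 19 of 22 lower on both arrays (26.5% of all genes) and 3 called lower (0.742% of all genes). The pyridoxine synthesis genes *SNO1* and *SNZ1*, which are adjacent on chromosome XIII, were at -1.46 (-1.35, -1.57) and -1.27 (-1.36, -1.18). The thiamine precursor genes *THI5* and *THI12* were at -1.05 (-0.96, -1.15) and -0.98 (-0.81, -1.16), while their near-identical copies *THI11* and *THI13* were not above background in either strain. The thiamine-repressed pyruvate decarboxylase gene *PDC5* went the other way, at 0.68 (0.67, 0.70). The main pyruvate decarboxylase gene *PDC1* had nearly the same values, at 0.68 (0.64, 0.72), so the 2 spots may share signal. In the kynurenine pathway to NAD, *BNA1* was at -1.88 (-1.70, -2.07) and *BNA5* at -1.04 (-0.999, -1.09), but *BNA2* was at 0.00 (-0.02, 0.02) and the list median was -0.25 (-0.015, -0.33).

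Arginine biosynthesis genes had a median of -0.60 (-0.56, -0.56), with 8 of 12 lower and 2 higher on both arrays (26.5% of all genes in each direction). *ARG3* (ornithine carbamoyltransferase) was at -1.04 (-0.94, -1.14), the mitochondrial ornithine transporter gene *ORT1* at -0.96 (-0.68, -1.23) and *CPA1* (carbamoyl phosphate synthetase) at -0.88 (-0.67, -1.10). The regulators *ARG81* and *MCM1* were at -0.00 (-0.08, 0.08) and 0.01 (0.01, 0.01). The enzyme genes were the lower ones and the regulators were near 0. Other amino acid biosynthesis genes had a median of -0.12 (-0.033, -0.29), with 23 of 52 lower on both arrays, against 26.5% of all genes. *HOM3* (aspartate kinase) was at -0.90 (-0.93, -0.87), *HIS4* at -0.76 (-0.89, -0.63) and *HIS5* at -0.76 (-0.65, -0.87). On replicate 2 the *HIS4* net intensity was 9747 in *med31Δ* and 8814.5 in wild-type, so its sign there rests on the normalization. *HIS3* carries a mutation in both strains and was left out on both arrays by its flag. Nitrogen catabolite genes had a median of 0.054 (0.0043, 0.081); the urea permease gene *DUR3* was at 0.71 (0.69, 0.73) and the ammonium permease gene *MEP2* at 0.58 (0.39, 0.77). Genes for using poor nitrogen sources were thus not lower as a class.

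Metal and membrane genes gave further calls. *FET3*, the iron uptake ferroxidase gene, was called higher at 1.04 (0.78, 1.30), and *SIT1*, a siderophore transporter gene, was at 0.95 (0.94, 0.96). The iron permease gene *FTR1* was at 0.40 (0.23, 0.57) and *ATX1*, a copper chaperone gene, was at -0.79 (-0.20, -1.38), so that the iron regulon as a list had a median of 0.027 (0.015, 0.079). The metallothionein genes *CUP1-2* and *CUP1-1* were called lower at -1.75 (-0.83, -2.66) and -1.73 (-0.86, -2.60). They are tandem copies of the same sequence and count as 1 signal, and its value differed by more than 2-fold between the arrays. *PDR5*, a drug efflux pump gene, was at 0.73 (0.84, 0.62). *ELO2* (fatty acid elongation) and *ERG3* (ergosterol synthesis) were at 0.87 (0.87, 0.88) and 0.74 (0.77, 0.72), in a sterol and lipid list whose median was 0.089 (0.098, 0.046).

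Genes past 1.5-fold with both labelings were ranked by their mean, and the 15 at either end also held genes of no list. On the lower side these were *HAB1* at -1.80 (-1.61, -1.996), *ARO5* at -1.51 (-1.15, -1.86), *RTC2*, a vacuolar amino acid transporter gene, at -1.47 (-0.90, -2.05) and *FMP16* at -1.41 (-0.74, -2.08). *ADH5*, an alcohol dehydrogenase gene of the fermentation list, was at -1.41 (-1.19, -1.63). On the higher side the genes of no list were the cell wall protein gene *TOS6* at 0.93 (1.12, 0.75), YBL083C, for which the gene table has no entry, at 0.81 (0.72, 0.90) and *PDS5*, which regulates cohesin, at 0.78 (0.75, 0.81). The falls were larger than the rises, and replicate 2 gave the larger value for most of the falls. Of the 44 genes called lower, 33 belong to at least 1 list and 19 were past 2-fold on both arrays. All 6 called higher belong to a list. The lists were chosen with earlier results of these data known, and the share of all genes in any list is not given. The list counts are thus a description only.

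**Figure D3:**
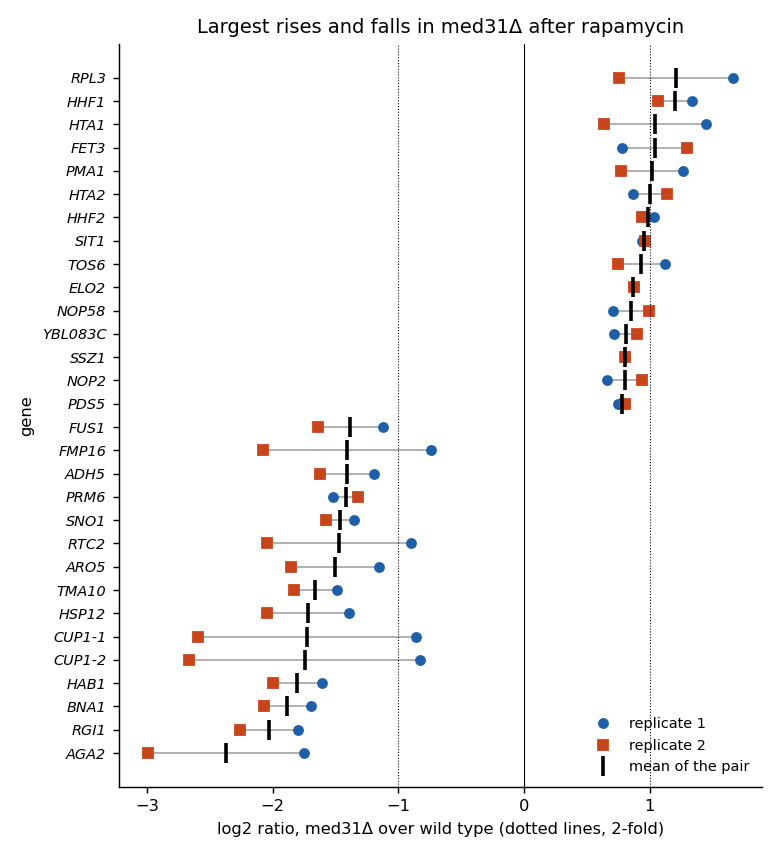
Log2 ratio of med31Δ over wild-type (x axis) on replicate 1 (circles) and replicate 2 (squares), with the mean of the pair (bars), for the 15 largest rises and 15 largest falls. The rises lie between 0.78 and 1.21 on the mean and the falls between -2.37 and -1.38; the CUP1 genes have the widest gap between arrays among the falls.

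Many of the remaining lists were close to the median of all genes. The oxidative phosphorylation, ER and subtelomeric lists were further from it. Proteasome genes had a median of 0.026 (0.13, -0.13), mitochondrial ribosome genes -0.03 (0.031, -0.17) and oxidative phosphorylation genes -0.13 (0.011, -0.30), and in each the arrays had opposite signs. Glycolysis and fermentation genes were at -0.017 (-0.027, -0.12), hexose transport and galactose genes at -0.016 (-0.16, -0.0086) and the phosphate regulon at -0.02 (-0.044, -0.03). Within these lists single genes still departed, such as *COX5B*, a hypoxic subunit gene of cytochrome oxidase, at -1.002 (-0.68, -1.33). *PDC1*, the main pyruvate decarboxylase gene, was at 0.68 (0.64, 0.72), and its spot may share signal with that of *PDC5*. ER folding and glycosylation genes had a median of 0.16 (0.18, 0.13), with 20 of 42 higher on both arrays (26.5% of all genes). Among them, the oligosaccharyltransferase gene *STT3* was at 0.63 (0.38, 0.88). Subtelomeric *PAU* and *COS* genes, families of near-identical copies, had a median of -0.21 (-0.13, -0.30), with 22 of 39 lower on both arrays (26.5% of all genes). The general RNA polymerase II machinery was at 0.022 (0.029, 0.052), with *RPB2*, a large subunit gene, at 0.67 (1.07, 0.28).

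**Figure D4:**
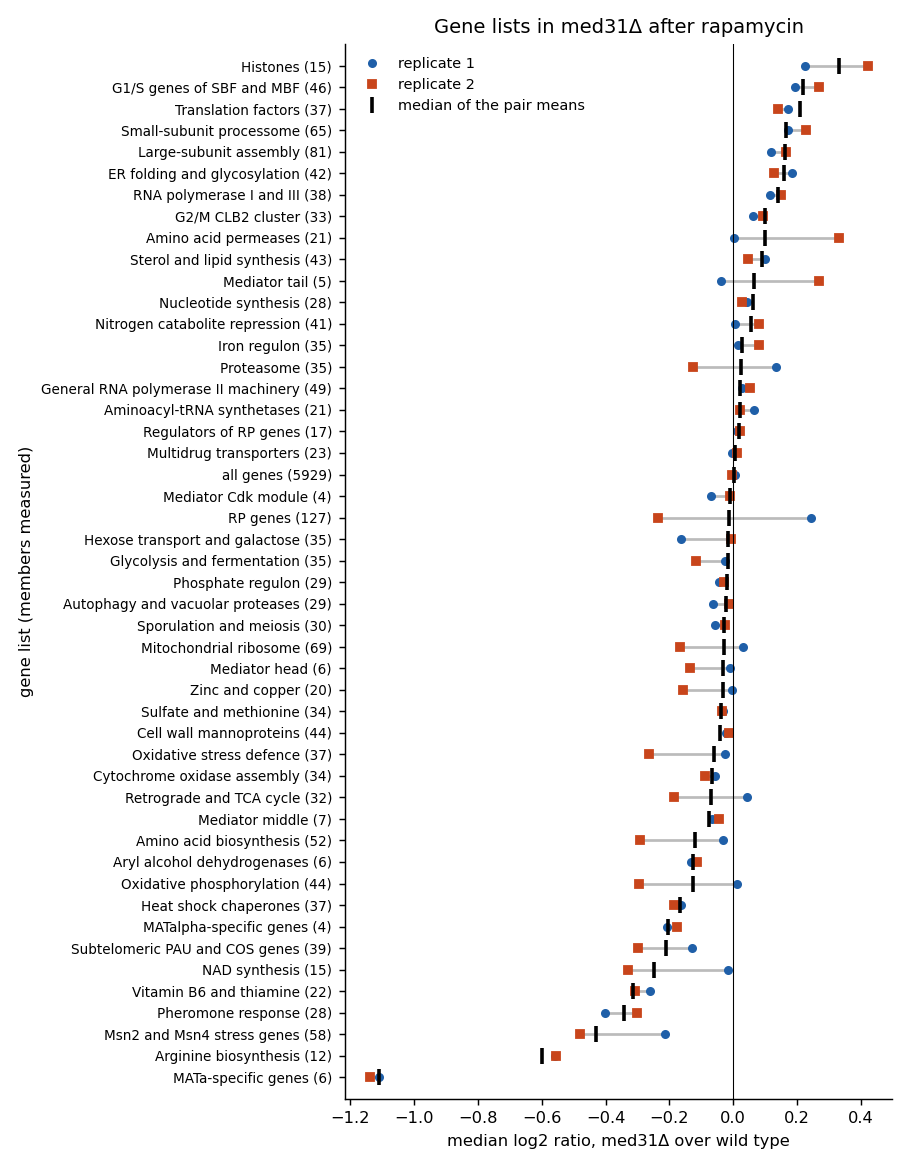
Median log2 ratio of med31Δ over wild-type (x axis) for each gene list, with the number of members measured, on replicate 1 (circles), on replicate 2 (squares) and over the pair means (bars). MATa-specific genes are at -1.11 and histones at 0.33, and the RP list spans 0 with medians of 0.24 and -0.24.

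The genes with the largest values in *med31Δ* were set beside the other deletions after rapamycin. In those strains 2.11%, 0.135% and 0.398% of genes were past 2-fold on the higher side and 1.81%, 0.101% and 0.243% on the lower side (*med20Δ*, *med16Δ* and *cycCΔ* in order). Signal differed between these pairs. In the same order, 83.5% to 93.5%, 80.6% to 85.2% and 65.3% to 74.8% of ORF spots were above background in a channel. The shares past 2-fold are therefore not on 1 scale. *AGA2*, at -2.37 in *med31Δ*, was at -2.44 in *med20Δ*, -1.15 in *med16Δ* and -0.25 in *cycCΔ*. *RGI1*, at -2.03, was at -0.54 in *med20Δ*, -1.35 in *med16Δ* and -0.36 in *cycCΔ*. *BNA1*, at -1.88, was at -2.33 in *med20Δ*, 0.36 in *med16Δ* and -0.70 in *cycCΔ*. *AGA2* was past 2-fold in *med31Δ*, *med20Δ* and *med16Δ*, *RGI1* in *med31Δ* and *med16Δ*, and *BNA1* in *med31Δ* and *med20Δ*. *PRM6*, at -1.42, was at -0.31 in *med20Δ*, -0.09 in *med16Δ* and -0.15 in *cycCΔ*, and *GPX1*, at -1.19, was at -0.34 in *med20Δ*, -0.05 in *med16Δ* and 0.42 in *cycCΔ*. These last 2 genes were within 2-fold of wild-type in the other deletions. *PRM6* was dim in *med31Δ*, with net intensities of 88.5 and 77, and the background limit reached 155.3 on the *cycCΔ* arrays. Whether low signal drew the ratios of these genes toward 0 in the other deletions was not tested. Wild-type cells gave 1.06 for *AGA2* with rapamycin over without, 0.25 for *PRM6* and 0.03 for *GPX1*.

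The stress genes *HSP12* and *YRO2* differed in sign between the deletions. *HSP12* was at -1.72 in *med31Δ* and at -3.16 in *med20Δ*, -0.15 in *med16Δ* and 2.71 in *cycCΔ*. *YRO2* was at -1.21 in *med31Δ* and at -2.10 in *med20Δ*, 0.02 in *med16Δ* and 2.32 in *cycCΔ*. Both genes were higher than wild-type in the Cdk module deletion and lower in the middle module deletion, on both arrays of each pair. The list medians were -0.43 (-0.21, -0.48) in *med31Δ*, -0.49 (-0.53, -0.67) in *med20Δ*, -0.12 (-0.084, -0.16) in *med16Δ* and -0.029 (0.0056, -0.012) in *cycCΔ*. Histone *HHF1*, at 1.20, was at 0.48 in *med20Δ*, 1.30 in *med16Δ* and 0.42 in *cycCΔ*, and *HHF2*, at 0.99, at 0.46 in *med20Δ*, 1.25 in *med16Δ* and 0.21 in *cycCΔ*. *RPL3*, at 1.21, was at 0.62 in *med20Δ*, 1.18 in *med16Δ* and 0.16 in *cycCΔ*. For the histones and *RPL3* the *med16Δ* value was the closest to that of *med31Δ*. *PMA1*, at 1.02, was at -1.27 in *med20Δ*, 0.35 in *med16Δ* and 0.51 in *cycCΔ*. MATa-specific gene medians were -1.11 (-1.11, -1.14) in *med31Δ*, -1.36 (-1.52, -1.24) in *med20Δ*, -0.70 (-0.68, -0.77) in *med16Δ* and -0.48 (-0.30, -0.85) in *cycCΔ*, and those of arginine biosynthesis -0.60 (-0.56, -0.56), -0.65 (-0.52, -1.04), -0.039 (-0.13, -0.16) and -0.35 (-0.12, -0.36) in the same order. In all deletions the medians of these 2 classes were below 0 on both arrays, but not every member was. In *cycCΔ* 4 of 6 MATa-specific genes were lower on both arrays, and in *med16Δ* 6 of 11 arginine biosynthesis genes were. The comparisons may share wild-type RNA, and no difference between deletions was tested.

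**Figure D5:**
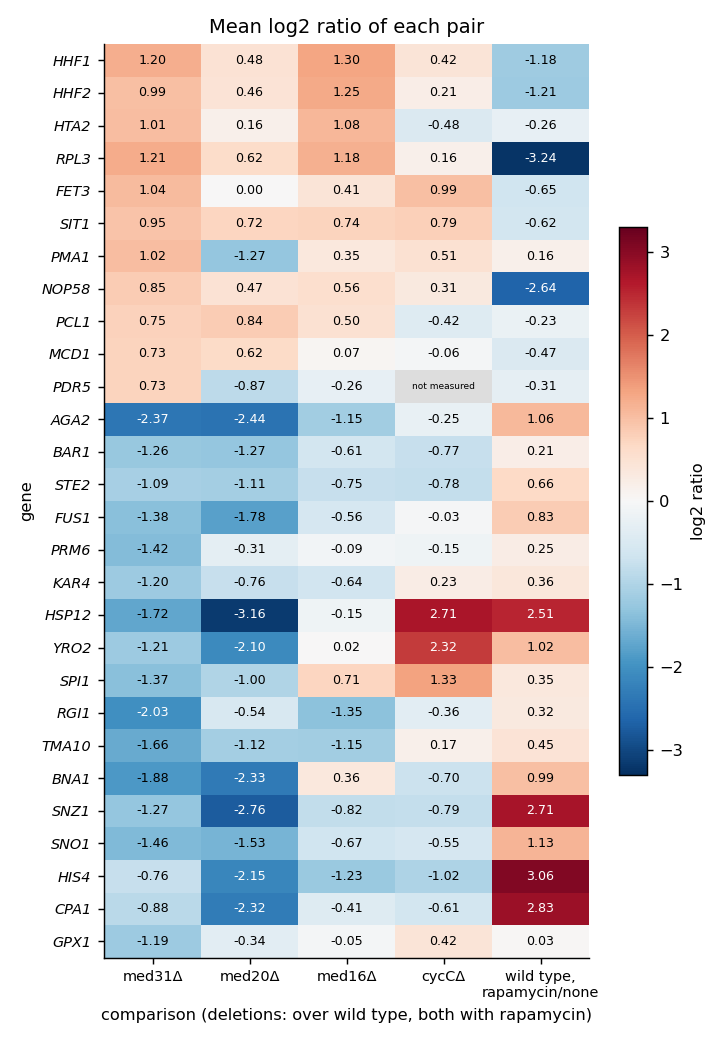
Mean log2 ratio of each dye-reversed pair for 28 genes (rows) in the comparison of 4 deletions with wild-type after rapamycin and of wild-type with and without rapamycin (columns); red is higher and blue lower, and the genes were picked from those described in the text. HSP12 and YRO2 are blue in med31Δ at -1.72 and -1.21 and red in cycCΔ at 2.71 and 2.32.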

How the data were processed

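Spotted 2-color arrays of yeast ORFs, hybridized with labeled cDNA made from messenger RNA, were used. For each array the authors deposited foreground and background intensity in the Cy5 and Cy3 channels, without background subtraction, and raw and normalized log10 ratios of Cy5 over Cy3. The series table equals the normalized ratios (largest difference 0 over 24 columns), whose column medians, -0.0133 to 0.0168, show centering; its method and the genes it used are given only by citation and stay unknown here. The genome build is not given in the sources used here.

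Intensities were background-corrected (normexp, offset 50) and loess-normalized within each array (span 0.3) with limma 3.58.1 in R 4.3.3. Control spots had weight 0, only spots flagged 1 entered, and ratios were turned to *med31Δ* over wild-type by the dyes in the labels. The offset draws the ratios of dim spots toward 0. Signs are those after normalization and can differ from those of the net intensities. On replicate 1 *RPL28* had 7164.5 in *med31Δ* and 7904 in wild-type, and *MEP2* had 13123 and 14178, yet both normalized ratios were positive. The background limit of a channel was the 95th percentile of net intensity over 29 unnamed spots. The number of arrays, 2, limits the precision. The pair was 1 replicate, as the sources do not say whether it holds separate cultures. A gene was called at 2-fold on the mean, with no test. Genes were named through an R64 gene table, which held 5801 of 6307 ORFs; 1 of 1694 list entries found no gene. Genes were chosen for the text by rule: *MED31* and its neighbors, Mediator genes, *RPL3* and *RPL28*, and the 15 largest rises and falls. Up to 4 members of each of 48 lists were also chosen, those furthest from 0 by mean with the same sign on both arrays. Others were added after their values were seen. A further list is not reported here. The members and lists were chosen with earlier results of these data known. The steps were tested on simulated data. Alternatives were 14 for each count, with a further one added after seeing the data, and 10 for each value.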

Additional observations from a re-analysis of the deposited data

Results flagged for a closer look

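Among the genes past 2-fold in *med31Δ*, 5 were past 2-fold in the opposite direction in another deletion strain after rapamycin, with the same sign on both arrays of each pair. The differences were not tested, and the comparisons may share wild-type RNA. *PMA1*, the proton pump gene, was at 1.02 in *med31Δ* and at -1.27 (-1.44, -1.11) in *med20Δ*. The other 4 were lower in *med31Δ* and higher in *cycCΔ*. *HSP12* was at -1.72 in *med31Δ* and at 2.71 (3.43, 1.98) in *cycCΔ*. *YRO2* was at -1.21 in *med31Δ* and at 2.32 (1.63, 3.01) in *cycCΔ*. *SPI1*, a cell wall protein gene, was at -1.37 in *med31Δ* and at 1.33 (1.49, 1.17) in *cycCΔ*. YHR022C was at -1.03 in *med31Δ* and at 1.42 (1.30, 1.53) in *cycCΔ*.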

How the results depend on the processing

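The count of genes higher and the count lower 2-fold, 6 and 44, depended on the setting. Without background correction they were 11 and 68, with local background subtracted 59 and 125, and with the authors' normalized ratios 51 and 114. Of the genes lower in the main setting, 44, 44 and 40 were among those lower in these settings. Asking for 2-fold on both arrays gave 1 and 19, and 1.5-fold on the mean gave 52 and 158. limma was also run over all 24 arrays, with each array as a replicate, at an adjusted p of 0.05. It called 41 and 120 genes with no replicate block and 69 and 164 with a dye term as the replicate block. With the replicate number as the replicate block, which was added after seeing the data, it called 48 and 134. The spread behind these counts is that between arrays of a pair, which may not hold separate cultures. They are therefore not a test across cultures. Replicate 1 has the numerator strain or treatment in Cy3 in 10 of 12 comparisons, and no label says whether a number marks a shared culture. Deviations of same-numbered arrays correlated between -0.131 and 0.796 over 6 pairs of rapamycin comparisons. For *med31Δ* the values were 0.796 with *cycCΔ*, 0.603 with *med16Δ* and -0.131 with *med20Δ*. In all of these comparisons the deletion strain is in Cy3 on replicate 1, so the correlations cannot tell replicate number from dye. Without 1 replicate the counts ranged from 4 to 25 and from 30 to 108. The RP gene median was -0.24 without replicate 1, 0.24 without replicate 2 and between -0.025 and 0.03 under the other alternatives. No list median of at least 0.1 with 1 sign on both arrays, and no named gene past 2-fold, changed sign under any of the 10 alternatives run for each; 468 of 480 alternative list medians and 1999 of 2024 gene values kept their sign. Spots near background limit the ratios of dim genes such as *PRM6* and *FIG1*.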
